A study of Oncorhynchus mykiss with 6 samples.

Results

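The miR-17/92 cluster and its paralogs were followed in small RNA libraries of female rainbow trout (Oncorhynchus mykiss). The tissue was the head kidney, in which fish form blood cells and mount immune responses. The members were taken by name: every row of the deposited table called ssa-miR- (an Atlantic salmon name) whose family is miR-17, miR-18, miR-19, miR-20, miR-25, miR-92, miR-93, miR-106 or miR-363, with any letter, copy number or arm. This gave 34 of the 1381 rows of the table, among 392 annotated rows. They were 3 rows of miR-17, 6 of miR-20, 3 of miR-93, 3 of miR-106, 4 of miR-18, 7 of miR-19, 3 of miR-25 and 5 of miR-92, and no row analysed here belonged to miR-363. The 2 groups were 3 heat-treated fish at 24 °C and 3 control fish at 18 °C, all female and 1 year old, with 1 library per fish. The labels and the design text do not say how long the fish spent at 24 °C, and they name no strain or stock.

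In vertebrates the cluster is transcribed as a single long RNA that is cut into several hairpins, each of which can give a miRNA from its 5′ arm (5p) and its 3′ arm (3p). Paralogous clusters carry related hairpins, so members fall into groups that share a seed, the bases of the miRNA that pair with target mRNAs. In mice and humans the cluster is induced by the transcription factor MYC, promotes proliferation, restrains the death gene BIM and is needed for normal B cell development, which is why it is often followed in blood-forming tissue. The seed groups compared here were the miR-17 group (miR-17, miR-20, miR-93 and miR-106) and the miR-18 group, whose mature miRNA is by convention the 5p arm, and the miR-19 group and the miR-92 group (miR-25, miR-92 and miR-363), whose mature miRNA is the 3p arm. The opposite arm is called the minor arm below. There were 14 mature and 20 minor rows.

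The libraries held 5156793, 4511972 and 4289895 counts at 24 °C and 5063549, 3753036 and 4746187 counts at 18 °C. Values are given as CPM, counts set to a common library total after TMM scaling, with no length term, and 3 counts were worth 0.579 to 0.807 CPM. The members together took 4.84%, 4.62% and 6.54% of the counts at 24 °C and 4.54%, 5.45% and 3.86% at 18 °C. The share was highest in fish 3 at 24 °C and lowest in fish 3 at 18 °C, and the groups overlapped. It averaged 5.33% ± 1.05 at 24 °C and 4.61% ± 0.797 at 18 °C (SD over 3 fish in each group). In whole tissue, fewer cells of a type and less RNA per cell cannot be told apart. Markers of other cell types were summed in the same libraries. The summed level of 11 rows of muscle miRNAs (the miR-1, miR-133, miR-206 and miR-499 families; miR-208 had no row) was 1137 to 2326 CPM at 24 °C and 411 to 725 CPM at 18 °C. That of both rows of the red cell miRNA miR-144 was 405 to 3052 CPM at 24 °C and 383 to 869.9 CPM at 18 °C, with the highest value in fish 3 at 24 °C; miR-451 had no row. The 7 leukocyte rows (miR-142, miR-150 and miR-155; miR-223 had no row) summed to 13832 to 17472 CPM at 24 °C and 9590 to 17031 CPM at 18 °C. The 14 epithelial rows (miR-200, miR-429, miR-203 and miR-205; miR-141 had no row) summed to 405 to 435 CPM at 24 °C and 434.5 to 838 CPM at 18 °C, and both miR-126 rows of endothelium to 87082 to 101990 CPM at 24 °C and 81200 to 107154 CPM at 18 °C. The part of these cells in the results below was not tested.

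The mature miRNAs of the cluster covered a wide range of levels. miR-92a-3p, the last miRNA of the original cluster, was the most abundant, at 22312, 19837 and 30689 CPM at 24 °C and 16931, 27065 and 14662 CPM at 18 °C. Its lowest library stood above the highest library of any other member. miR-25-3p, which shares its seed and comes from a paralogous cluster, had 9929, 8814 and 11504 CPM at 24 °C and 9273, 12371 and 6998 CPM at 18 °C. miR-19a-3p, the main miRNA of its seed group, had 5892, 11206 and 7961 CPM at 24 °C and 9663, 5647 and 8452 CPM at 18 °C. The ranges of miR-25-3p and miR-19a-3p over the 6 libraries overlapped, so their order is not set. Below them in mean level came miR-20a-5p, miR-17-5p, miR-19c-3p, miR-106a-5p, miR-93a-5p, miR-19d-3p, miR-18a-5p, miR-18b-5p and miR-20b-5p. Among these neighbours the ranges overlapped for miR-17-5p and miR-19c-3p, for miR-18a-5p and miR-18b-5p, and for miR-18b-5p and miR-20b-5p. The least abundant mature rows were miR-106b-5p, with a mean of 8.95 CPM over the 6 libraries, and miR-92b-3p, with 5.14 CPM, whose ranges also overlapped.

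**Figure D1:**
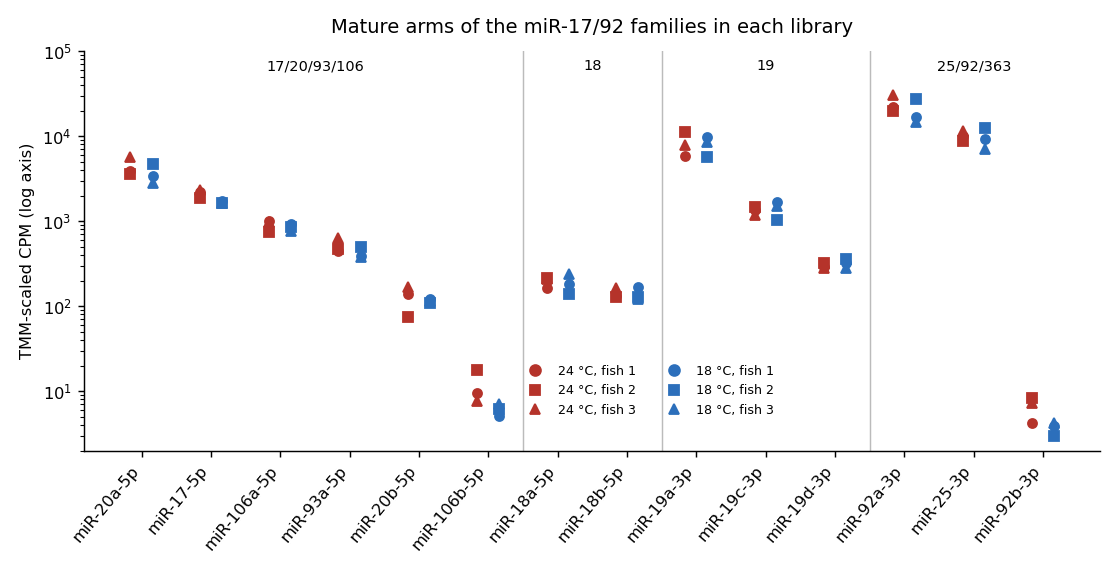
TMM-scaled CPM (log axis) of the 14 mature rows, grouped by seed group and ordered by mean level within it, with 1 point per library (red, 24 °C; blue, 18 °C; the shape marks the fish number, which does not pair the fish). Levels run from about 5.14 CPM on average for miR-92b-3p to 21916 CPM for miR-92a-3p, and the 2 groups overlap for all rows but miR-17-5p, miR-106b-5p and miR-92b-3p.

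A single abundant row led each large seed group. miR-92a-3p gave 64.6% to 72.7% of the mature counts of the miR-92 group over the 6 libraries, and miR-19a-3p 78.2% to 86.3% of those of the miR-19 group. miR-20a-5p gave 48.9% to 60.3% of the miR-17 group, with miR-17-5p at 20.8% to 28.9%, miR-106a-5p at 10.1% to 14.0% and miR-93a-5p at 5.83% to 7.11%. In the miR-18 group the counts were spread more evenly, with miR-18a-5p at 51.9% to 66.6%.

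None of the members differed between the temperatures past the threshold. The fit was made on all 537 rows with enough counts, of which 1 was called higher at 24 °C and none lower (0.186% called in either direction, edgeR quasi-likelihood test, adjusted p under 0.05), while 35 rows had an unadjusted p under 0.05 (6.52%). Of the 34 members 26 could be tested, 0 were called by edgeR in either direction, and 1 had an unadjusted p under 0.05. DESeq2 called 5 of the 537 rows, none of them a member. Of the 26 members 17 had a positive log2 fold change (24 °C over 18 °C), against 50.3% of all rows, with a median of 0.09 for the members and 0.002 for all rows. Without fish 3 at 24 °C, 13 members were positive and the median was 0.003, against -0.06 for all rows in that fit. With any other library left out instead, 15 to 18 members were positive. Their median was then 0.08 to 0.19, against -0.02 to 0.003 for all rows. For 15 of the 26 members the 95% interval of the fold change lay within 2-fold either way. The other 8 members were too rare to test.

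**Figure D2:**
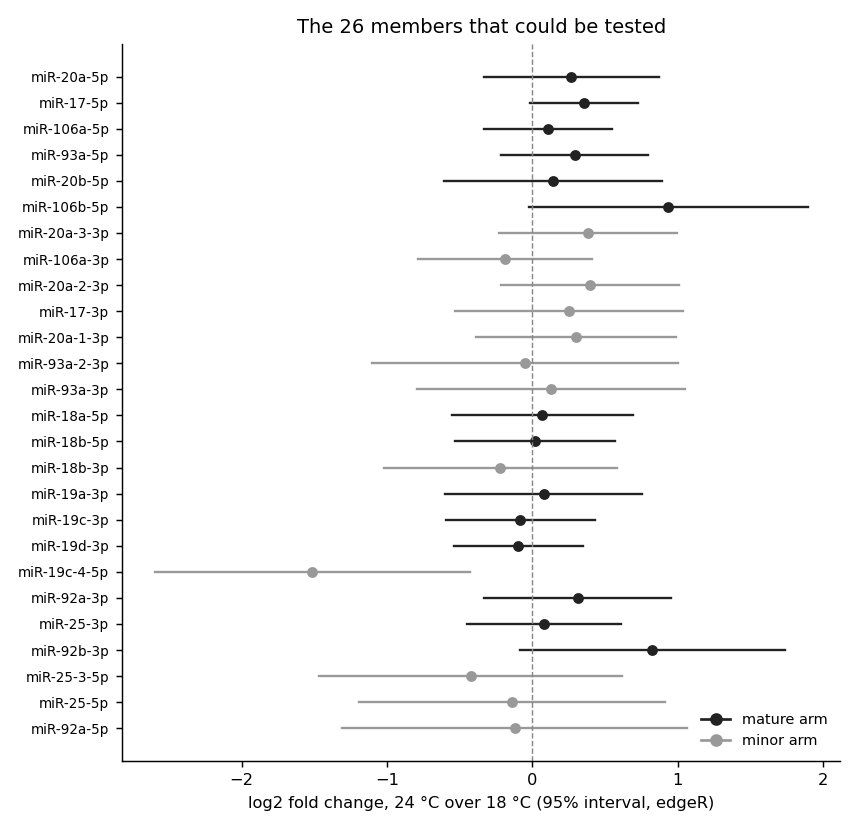
The log2 fold change, 24 °C over 18 °C, of the 26 tested members from the edgeR fit of all 537 rows, with 95% intervals (black, mature arms; grey, minor arms). Every interval includes 0 except that of miR-19c-4-5p, a row of 4 to 22 counts per library, and no member passed after adjustment.

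In the miR-17 group, whose mammalian members repress the cell cycle inhibitor CDKN1A, all 6 mature rows had positive estimates and none passed. Without fish 3 at 24 °C the estimates of miR-106a-5p (-0.0025) and miR-20b-5p (-0.16) were negative, and the others stayed positive. The group summed to 7752, 6714 and 9781 CPM at 24 °C and 6545, 7820 and 5734 CPM at 18 °C. Fish 2 at 18 °C lay above fish 1 and 2 at 24 °C, so the groups overlapped. The difference in mean log2 level, 24 °C minus 18 °C, was 0.26, with a pooled SD between fish of 0.25, and with 1 library left out it ranged from 0.12 without fish 3 at 24 °C to 0.39 without fish 2 at 24 °C.

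miR-17-5p, the founding member, had 2226, 1851 and 2353 CPM at 24 °C and 1748, 1625 and 1659 CPM at 18 °C. Each heat library lay above each control library. Its log2 fold change was 0.35 ± 0.16 (SE; 95% interval -0.02 to 0.72), which did not pass (edgeR adjusted p = 0.63). Over all alternatives the log2 fold change of miR-17-5p lay between 0.23 and 0.44. miR-20a-5p, of the same cluster, had 3919, 3546 and 5635 CPM at 24 °C and 3359, 4714 and 2803 CPM at 18 °C. Its highest library was fish 3 at 24 °C and its second highest fish 2 at 18 °C, and the log2 fold change was 0.27 ± 0.26 (edgeR adjusted p = 0.84). It was 0.01 without fish 3 at 24 °C and 0.43 without fish 2 at 18 °C. miR-106a-5p, from the paralogous cluster that in mammals lies on the X chromosome, had 1005, 748 and 986 CPM at 24 °C and 916, 862 and 770.2 CPM at 18 °C. Its values overlapped almost fully, with a log2 fold change of 0.10 ± 0.19.

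miR-93a-5p, which in mammals lies in one hairpin cluster with miR-25, had 452, 477 and 629.6 CPM at 24 °C and 395, 503 and 378 CPM at 18 °C, with a log2 fold change of 0.29 ± 0.22. miR-20b-5p had 140.3, 74.8 and 169 CPM at 24 °C and 123, 109 and 117 CPM at 18 °C, so that fish at 24 °C held both its lowest and its highest value (0.14 ± 0.32). The rare miR-106b-5p was counted 50, 76 and 35 times at 24 °C and 26, 23 and 34 times at 18 °C. That is 9.65, 17.9 and 7.76 CPM at 24 °C against 5.10, 6.19 and 7.11 CPM at 18 °C, with all heat libraries above all control libraries. Its log2 fold change was 0.94 ± 0.41 (95% interval -0.02 to 1.89; edgeR adjusted p = 0.63), and it is named here because its groups did not overlap, after its values were seen. Fish 2 at 24 °C held the most, and without it the log2 fold change of miR-106b-5p was 0.50.

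The miR-18 group differs from the miR-17 group by its seed and is known in mammals for repressing CTGF. Its sum was 296, 342 and 370.4 CPM at 24 °C and 350.2, 266 and 359.5 CPM at 18 °C, and the groups overlapped. The difference in mean log2 level was 0.05, with a pooled SD of 0.21, and with 1 library left out it ranged from -0.08 without fish 2 at 18 °C to 0.14 without fish 1 at 24 °C. miR-18a-5p had 163, 215 and 209 CPM at 24 °C and 182, 138 and 239 CPM at 18 °C (0.07 ± 0.27 as log2 fold change). miR-18b-5p had 132.5, 127.5 and 162 CPM at 24 °C and 169, 128 and 120.0 CPM at 18 °C (0.02 ± 0.24). For both rows the values of the 3 control fish enclosed those of the 3 heat fish.

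The miR-19 group had no shift in either direction that exceeded the spread between fish. Its sum was 7538, 12987 and 9431 CPM at 24 °C and 11676, 7040 and 10240 CPM at 18 °C. The lowest values belonged to fish 2 at 18 °C and fish 1 at 24 °C, the highest to fish 2 at 24 °C. The difference in mean log2 level was 0.04 with a pooled SD of 0.39, and its sign turned without fish 2 at 24 °C (-0.16), without fish 2 at 18 °C (-0.17) or without miR-19a-3p (-0.07). miR-19a-3p itself had a log2 fold change of 0.08 ± 0.29 (95% interval -0.60 to 0.76). miR-19c-3p had 1353, 1456 and 1192 CPM at 24 °C and 1693, 1036 and 1506 CPM at 18 °C (-0.08 ± 0.22). miR-19d-3p had 293, 326 and 278 CPM at 24 °C and 319.8, 357 and 282 CPM at 18 °C (-0.10 ± 0.19), and it varied least of the 3 between fish.

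The miR-92 group summed to 32245, 28658 and 42200 CPM at 24 °C and 26208, 39439 and 21665 CPM at 18 °C. Fish 3 at 24 °C and fish 2 at 18 °C were the highest in their groups, and the groups overlapped. The difference in mean log2 level was 0.27 with a pooled SD of 0.37. It ranged from 0.08 without fish 3 at 18 °C to 0.51 without fish 2 at 18 °C. miR-92a-3p had a log2 fold change of 0.31 ± 0.27 (95% interval -0.33 to 0.96), which was 0.08 without fish 3 at 24 °C and 0.55 without fish 2 at 18 °C. miR-25-3p had one of 0.08 ± 0.23 (-0.45 to 0.61). The rare miR-92b-3p was counted 22, 35 and 33 times at 24 °C and 20, 11 and 20 times at 18 °C, or 4.24, 8.23 and 7.32 CPM at 24 °C and 3.92, 2.96 and 4.18 CPM at 18 °C. All heat libraries lay above all control libraries, fish 1 at 24 °C by a small margin, and its log2 fold change was 0.82 ± 0.39 (edgeR adjusted p = 0.63, not passed; named after its values were seen).

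In all, 5 of the 26 tested members (19.2%) had every heat library above every control library, against 6.89% of all 537 rows. Every heat library was below in 1 member (3.85%), against 5.96%. The 5 were miR-17-5p, miR-106b-5p, miR-92b-3p and the minor rows miR-20a-1-3p and miR-20a-2-3p. These minor rows are the same arm of copies of miR-20a, so they are not separate cases. Whether the share of the members exceeds that of all rows was not tested. miR-20a-2-3p had 38.4, 44.7 and 49.2 CPM at 24 °C and 33.3, 35.0 and 32.2 CPM at 18 °C, with a log2 fold change of 0.40 ± 0.26. miR-20a-1-3p had 11.6, 12.0 and 13.7 CPM at 24 °C and 11.0, 9.69 and 9.62 CPM at 18 °C (0.30 ± 0.29). Neither passed (edgeR adjusted p = 0.73 and 0.84). The sum of the 11 rows of muscle miRNAs was also higher in each heat library than in each control library, and their part was not tested.

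The make-up of the mature counts varied between fish more than between temperatures. The miR-92 group took 67.4%, 58.8% and 68.3% of the mature counts at 24 °C and 58.5%, 72.3% and 57.0% at 18 °C. The miR-19 group took 15.8%, 26.7% and 15.3% at 24 °C and 26.1%, 12.9% and 26.9% at 18 °C. Fish 1 and 3 at 24 °C and fish 2 at 18 °C thus had little miR-19 beside much miR-92 and miR-25, and the other 3 fish had more miR-19. The miR-17 group was the steadier, at 16.2%, 13.8% and 15.8% at 24 °C and 14.6%, 14.3% and 15.1% at 18 °C. The miR-18 group took 0.618%, 0.703% and 0.600% at 24 °C and 0.782%, 0.488% and 0.946% at 18 °C. Like the miR-19 group, it was lower in fish 1 and 3 at 24 °C and fish 2 at 18 °C than in the other 3 fish.

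**Figure D3:**
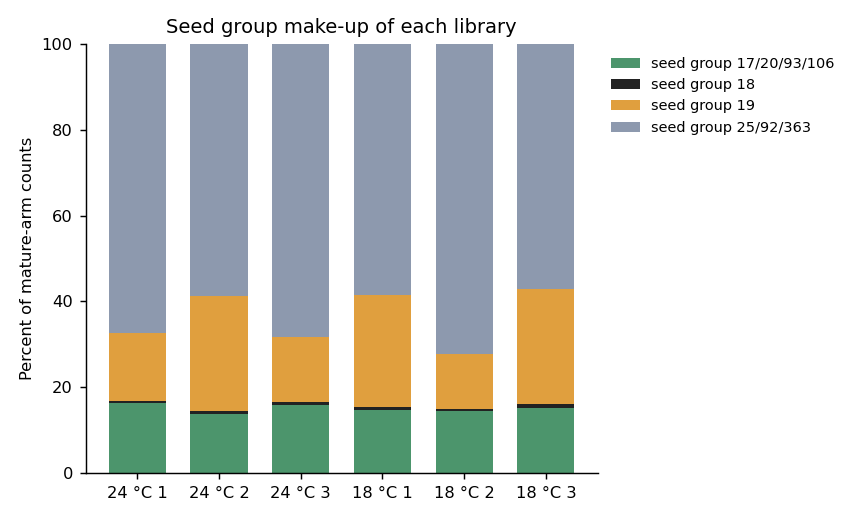
Percent of all mature-arm counts of the families taken by each seed group, 1 bar per library (24 °C fish 1 to 3, then 18 °C fish 1 to 3). The miR-19 group takes 12.9% to 15.8% in fish 1 and 3 at 24 °C and fish 2 at 18 °C and 26.1% to 26.9% in the other 3, and both kinds of fish occur at both temperatures.

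Ratios between members within a library do not depend on how libraries are scaled, and they were taken for the 66 pairs of the 12 mature rows with a mean of at least 100 CPM. The ratio of miR-92a-3p to miR-20a-5p was the steadiest of the 66, at 5.69, 5.59 and 5.45 at 24 °C and 5.04, 5.74 and 5.23 at 18 °C, a spread of 1.14-fold from lowest to highest. These miRNAs have different seeds, and in vertebrate clusters their hairpins stand in the same transcript, whose part in the ratios was not tested. The ratio of miR-92a-3p to miR-19a-3p, also products of that transcript in other vertebrates, was 3.79, 1.77 and 3.85 at 24 °C and 1.75, 4.79 and 1.73 at 18 °C, a 2.76-fold spread. Its values fell into a low and a high set with no fish between 1.77 and 3.79, and each set held fish of both temperatures. The high set had 5156793, 4289895 and 3753036 counts per library and the low set 4511972, 5063549 and 4746187. The ratio of miR-20a-5p to miR-17-5p, a member of the same vertebrate cluster, spread 1.72-fold, and that of miR-92a-3p to miR-17-5p 1.88-fold. Minor rows of miR-20a and miR-92a carry copy numbers, so their mature rows may sum hairpins of several loci. Ratios of miR-20a-5p with rows of paralogous clusters spread 1.26-fold (miR-93a-5p), 1.35-fold (miR-25-3p) and 1.57-fold (miR-106a-5p). Among the 15 pairs within a seed group the median spread was 1.72-fold, and among the 51 pairs across seed groups 1.96-fold. The 27 pairs of a miR-19 row with a row of another seed group had a median spread of 2.18-fold (1.51 to 3.57). The 24 other pairs across seed groups had one of 1.83-fold (1.14 to 3.20). The widest of these 24 were the ratios of miR-92a-3p (3.20-fold), miR-25-3p (3.07-fold) and miR-20a-5p (2.92-fold) to miR-18a-5p. The narrowest of the 27 was that of miR-19a-3p to miR-18a-5p, at 1.51-fold. The widest spread, 3.57-fold, was that of miR-19a-3p to miR-20b-5p.

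The ratio of 4 of the 66 pairs did not overlap between the temperatures, or 6.06%, against 13.7% of the 8646 pairs of all annotated rows with a mean of at least 100 CPM, so that such pairs were no more frequent among the members than in the table. That of miR-17-5p to miR-106a-5p was 2.22, 2.48 and 2.38 at 24 °C and 1.91, 1.89 and 2.15 at 18 °C, and averaged 2.36 ± 0.132 in heat fish and 1.98 ± 0.148 in control fish (SD, n = 3 each). That of miR-92a-3p to miR-25-3p was 2.25, 2.25 and 2.67 at 24 °C and 1.83, 2.19 and 2.10 at 18 °C. The others were miR-17-5p to miR-18b-5p, at a mean of 15.3 at 24 °C and 12.3 at 18 °C, and miR-93a-5p to miR-19d-3p, at 1.76 and 1.33. The pairs share rows and were not tested.

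**Figure D4:**
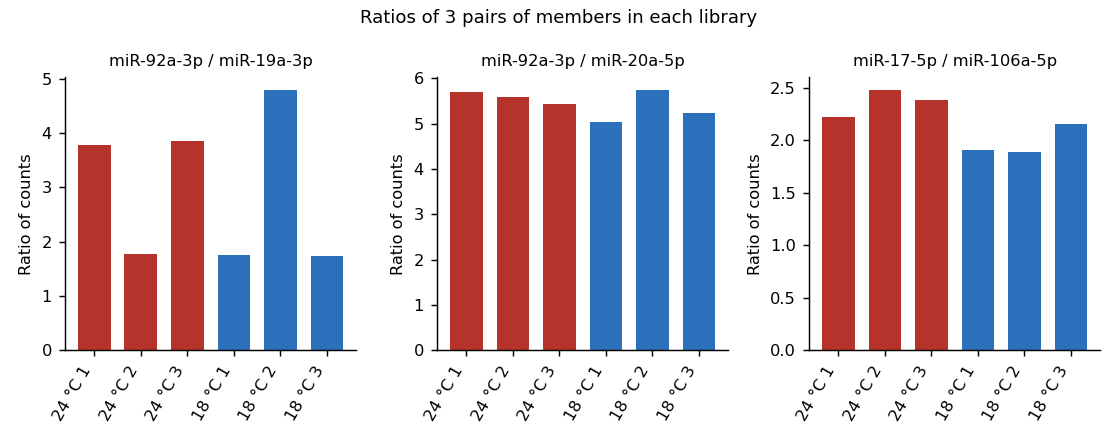
Ratio of counts within each library for 3 pairs of mature members (bars, 1 per library; red, 24 °C; blue, 18 °C; each axis starts at 0). miR-92a-3p to miR-19a-3p takes values near 1.73 to 1.77 or from 3.79 to 4.79 at either temperature. miR-92a-3p to miR-20a-5p lies between 5.04 and 5.74. miR-17-5p to miR-106a-5p lies between 2.22 and 2.48 in the heat libraries and between 1.89 and 2.15 in the control libraries.

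The minor arms were far rarer than the mature ones and took 0.0363% ± 0.00497 of all counts in heat fish and 0.0338% ± 0.00738 in control fish (SD, n = 3 each), against 5.30% ± 1.04 at 24 °C and 4.58% ± 0.790 at 18 °C for the mature arms. How rare they were depended on the miRNA more than on the temperature. With copies summed, the minor arm was 9.90% to 15.4% of both arms for miR-106a, 5.71% to 12.0% for miR-18b, 3.57% to 4.64% for miR-20a and 2.74% to 5.03% for miR-93a. It was 0.612% to 1.13% for miR-17, 0.115% to 0.211% for miR-25 and only 0.00578% to 0.0225% for miR-92a. miR-19a had 1 minor count among 224741, and miR-19d and miR-106b had no row for the minor arm. By seed group the share was 3.97% ± 0.361 at 24 °C and 4.25% ± 0.347 at 18 °C for the miR-17 group. For the miR-18 group it was 3.48% ± 0.484 at 24 °C and 4.08% ± 1.89 at 18 °C, where fish 2 had 6.26% and both others 2.99%. Without that fish the difference in the miR-18 group, 24 °C minus 18 °C, turned to 0.49 percentage points. For the miR-92 group it was 0.0540% ± 0.0200 at 24 °C and 0.0747% ± 0.00475 at 18 °C, again with 3 fish in each group. These 3 groups overlapped between the temperatures.

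**Figure D5:**
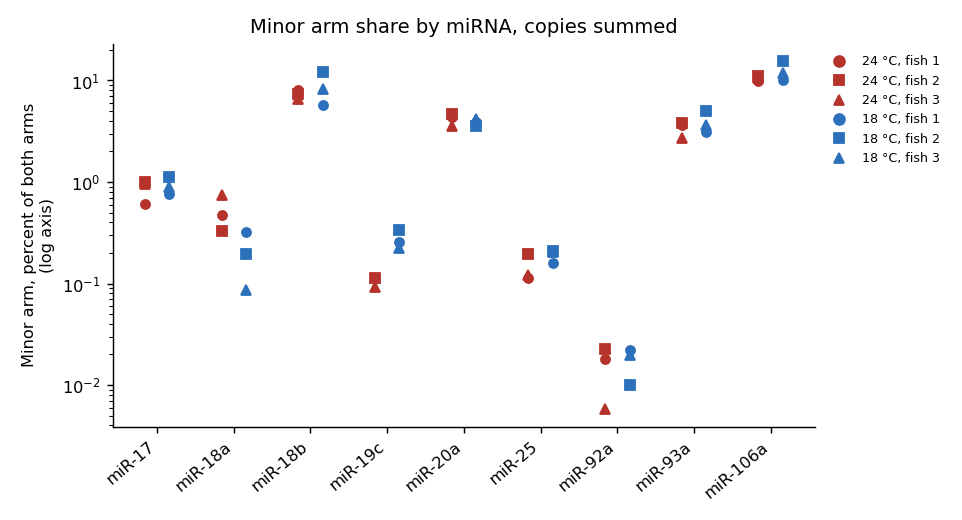
Minor-arm counts as a percent of the counts of both arms (log axis), 1 point per library, for the 9 miRNAs with minor-arm counts in all libraries and with numbered copies summed (red, 24 °C; blue, 18 °C). Shares run from 0.00578% for miR-92a to 15.4% for miR-106a. The heat and control libraries do not overlap for miR-18a (1 to 7 counts) and miR-19c (5 to 22 counts). Among the 79 annotated precursors with at least 10 counts per arm on average, copies not summed, 11.4% of arm ratios did not overlap. How often shares with copies summed, or of rarer rows, do not overlap among all annotated miRNAs was not counted.

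The row that departed most from the others was miR-19c-4-5p, the minor arm of a copy of miR-19c. It was counted 6, 7 and 4 times at 24 °C and 22, 11 and 16 times at 18 °C, or 1.16, 1.65 and 0.887 CPM at 24 °C and 4.32, 2.96 and 3.35 CPM at 18 °C. Even the highest heat library was below the lowest control library. Its log2 fold change was -1.51 ± 0.46 (95% interval -2.60 to -0.43; edgeR adjusted p = 0.62). It was the member with an unadjusted p under 0.05 mentioned above. Its estimate ranged from -1.79 without fish 2 at 24 °C to -0.27 on the log2(TPM + 10) scale, which shrinks rare rows, and it passed in none of the alternatives run. The mature miR-19c-3p had a log2 fold change of -0.08 ± 0.22. Summed over all miR-19c copies, the minor arm was 0.114%, 0.113% and 0.0929% of both arms at 24 °C. At 18 °C it was 0.254%, 0.336% and 0.222%, and these groups did not overlap. Of the 71 minor-arm counts in these sums 66 were those of miR-19c-4-5p, so the share is not a separate result.

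The balance of arms was tested on a log2 scale, as the 5p count over the 3p count. This was done for the 79 annotated precursors whose 5p and 3p rows share a name and average at least 10 counts each. None of the 79 passed (limma, 0% called), while 7 had an unadjusted p under 0.05 (8.86%). The members among the 79 were miR-17, miR-18b, miR-25, miR-92a, miR-93a and miR-106a. The groups overlapped for each of these 6, against 11.4% of the 79 precursors with groups that did not overlap. The smallest p-values were those of miR-92a and miR-106a. The miR-92a log2 ratio was -12.96, -12.15 and -14.38 at 24 °C and -12.27, -13.23 and -12.24 at 18 °C, where the value for fish 3 at 24 °C rests on 6 counts of the 5p arm. Its change was -0.59 ± 0.55 (SE; limma adjusted p = 0.92), and with 1 library left out it ranged from -1.09 without fish 2 at 24 °C to 0.02 without fish 3 at 24 °C. The miR-106a ratio was 3.19, 3.00 and 3.08 at 24 °C and 3.14, 2.45 and 2.88 at 18 °C, a change of 0.26 ± 0.26 (limma adjusted p = 0.92), with fish 2 at 18 °C the lowest. That of miR-18b, next in order, was 3.51, 3.64 and 3.83 at 24 °C and 4.03, 2.86 and 3.45 at 18 °C, a change of 0.21 ± 0.33. The miR-19c-5p row held 3 counts in all, so the pair of miR-19c-5p and miR-19c-3p was too rare to enter. miR-19c-4-5p has no partner of the same copy number. The abundant miR-20a-5p has no 3p row of the same name either, so miR-20a did not enter. With copies summed on each arm, a choice made after seeing the data, 3 of 91 precursors passed (3.3% called), and miR-19c was one of them, at -9.69, -9.69 and -9.93 at 24 °C and -8.58, -8.16 and -8.77 at 18 °C (change -1.27 ± 0.25, limma adjusted p = 0.036). It rests on 71 minor-arm counts in all, of which 66 are those of miR-19c-4-5p, so it is not separate from that row. Without any 1 library that still left it enough counts, it did not pass (limma adjusted p from 0.092 without fish 2 at 18 °C to 0.16 without fish 3 at 24 °C), and without fish 1 at 18 °C its mean fell under 10 counts per arm.

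Apart from miR-19c-4-5p, miR-20a-1-3p and miR-20a-2-3p, described above, the minor rows with enough counts to test overlapped between the groups. miR-20a-3-3p was the most abundant, at 131, 116 and 146 CPM at 24 °C and 91.4, 129.7 and 79.7 CPM at 18 °C, with a log2 fold change of 0.38 ± 0.26. miR-106a-3p had 110.4, 93.4 and 117 CPM at 24 °C and 104, 157 and 104 CPM at 18 °C (-0.19 ± 0.26), a sign opposite to that of its mature arm, with fish 2 at 18 °C the highest. miR-18b-3p had 11.6, 10.1 and 11.3 CPM at 24 °C and 10.2, 17.5 and 10.9 CPM at 18 °C (-0.22 ± 0.34). miR-25-3-5p had 8.30, 14.8 and 11.3 CPM at 24 °C and 10.6, 24.2 and 11.5 CPM at 18 °C (-0.42 ± 0.44). Fish 2 at 18 °C had the most of each of these last 3. miR-17-3p (0.25 ± 0.33), miR-93a-3p (0.13 ± 0.39), miR-93a-2-3p (-0.05 ± 0.45), miR-25-5p (-0.14 ± 0.45) and miR-92a-5p (-0.12 ± 0.51) overlapped as well. Over the 14 mature rows the median log2 fold change was 0.12, with 12 positive. Over the 12 tested minor rows it was -0.09, with 5 positive, beside 0.002 and 50.3% positive over all rows. Without fish 3 at 24 °C several mature estimates turned negative, and 13 of the 26 members were positive. The contrast between the arms thus rested in part on that fish. The 8 rows too rare to test, all minor arms, were miR-17-3-3p, miR-18a-3p, miR-19a-5p, miR-19c-5p, miR-19c-3-5p, miR-20b-3p, miR-92a-4-5p and miR-92b-5p, with 0 to 7 counts per library. miR-18a-3p had 4, 3 and 7 counts at 24 °C and 3, 1 and 1 at 18 °C.

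Salmonid genomes keep many duplicated genes, and reads that match several copies may have been split between rows, so the counts were also summed by family number and arm over the whole table. Of the 415 resulting rows 1 was called (0.241%), and none of the 16 family sums of the members. The 5p sums of miR-17, miR-20, miR-93 and miR-106 had log2 fold changes of 0.33 ± 0.17, 0.25 ± 0.26, 0.27 ± 0.22 and 0.09 ± 0.20. That of miR-18-5p was 0.02 ± 0.21. The 3p sums of miR-19, miR-25 and miR-92 had 0.02 ± 0.27, 0.06 ± 0.23 and 0.30 ± 0.28. The miR-19-5p sum, of 72 counts, had the lowest, at -1.32 ± 0.40 (edgeR adjusted p = 0.64). Of its counts 66 were those of miR-19c-4-5p.

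Families tied to the cell cycle outside the clusters showed no call either. Of the 39 tested rows of miR-15, miR-16, miR-221, miR-222 and let-7, 0 passed (edgeR) and 1 had an unadjusted p under 0.05, with a median log2 fold change of 0.01 and 21 positive. miR-15 and miR-16, which in mammals repress cyclins, had medians of 0.02 over 10 rows and -0.08 over 5. miR-34, miR-195 and miR-497 had no row. Among 118 other annotated rows with a mean of at least 100 CPM, those whose log2 CPM followed the sum of the mature members most closely over the 6 libraries were miR-7a-5p (Pearson r = 0.95, Spearman rho = 1), miR-210-5p (0.91 and 0.83), let-7b-5p (0.84 and 0.83), let-7a-5p (0.83 and 0.60) and miR-144-5p (0.81 and 0.89). These are descriptions over 6 libraries that share the scaling and the totals, for rows picked as the closest of 118. The level of miR-7a-5p ran only from 26983 to 31048 CPM, against 37999 to 61783 CPM for the sum. Without the 2 libraries farthest from the median of the sum, r was 0.90 for miR-7a-5p and 0.75 for miR-210-5p, but 0.36, -0.02 and 0.45 for the last 3, so that those rest on these libraries.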

How the data were processed

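The authors deposited raw read counts per miRNA as whole numbers for 6 libraries, per the file headers, beside TPM values that equal each count over its library's total, so the deposited TPM hold no length term. Total RNA was extracted with TRIzol and libraries were made with the NEBNext small RNA kit, per the labels' protocols. The submitters' processing notes name Bowtie. The sources used here give neither its version nor the genome build, nor how reads that match several miRNAs were handled. The table pairs names with no sequence or position, so none is printed. The 392 annotated names are those of Atlantic salmon, and 989 rows are numbered predictions.

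Libraries were grouped by title and design text. All pairs of libraries differed by far more than counting noise, with a chi-square of 117 to 344 per degree of freedom. Nothing states how the fish were housed. If each temperature had its own tank, tank and temperature cannot be told apart. The p-values set the difference between the groups against the spread between these fish. The filter filterByExpr (count of 10, total of 15) left 537 rows, which were scaled by TMM and fitted with edgeR 4.0.16 (robust quasi-likelihood; R 4.3.3), with Benjamini-Hochberg adjustment over all 537 and a threshold of 0.05. Standard errors are the log2 fold change over the root of F. Arm ratios, with 0.5 added to each count, were tested with limma 3.58.1 where both arms averaged 10 counts or more. Differences of seed group sums and shares are descriptions with no p. Alternatives were limma on log2(TPM + 1) or log2(TPM + 10), limma-voom, DESeq2 1.42.0, 3 other scalings, 2 other filters, annotated rows alone, no robust step, a replicate block and each library left out. Scripts were tested on simulated data.

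The members, lists and rules were chosen with earlier results of these data known. Rows given in full are the 3 most abundant of each seed group, those with an unadjusted p under 0.05, those with at least 10 CPM whose groups do not overlap and the 3 smallest arm-ratio p-values; others named in full were chosen after their values were seen.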

Additional observations from a re-analysis of the deposited data

How the results depend on the processing

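No member was called in any of the 18 alternatives to the fit of single rows, nor any family sum of the members in the 10 alternatives run for these sums. Over all rows, 1 was called higher, but 2 with DESeq2 and 0 with the replicate block (0 to 1 with a library left out), and 0 were called lower, but 3 with DESeq2 (0 to 1 with a library left out). The replicate block called 0 members; deviations from the group means of same-numbered fish had correlations of -0.06, -0.20 and -0.17, so the numbers were not taken to pair them. Arm ratios of members called numbered 0, but 1 lower (miR-19c) with copies summed, a choice made after seeing the data. The difference in minor arm share (24 °C minus 18 °C, percentage points) was -0.28 for the miR-17 group, -0.60 for the miR-18 group (from -1.15 to 0.49 with a library left out), -0.024 for the miR-19 group and -0.021 for the miR-92 group. With only precursors that have rows for both arms it was -1.01 for the miR-17 group, 0.00116 for the miR-19 group and -0.00536 for the miR-92 group. This choice leaves out all minor rows of the members with copy numbers. It also leaves out mature rows with no partner of the same name, among them the abundant miR-20a-5p, so the counts of both arms change. Of 461 alternative estimates of member rows, 29 had the other sign, all of rows at or under 0.14 in size. Other scalings moved the median of all rows by at most 0.065 (log2). With 3 fish per group and a median SE of 0.28 for the members, changes well under 2-fold were not detectable. Larger ones could be missed as well. The estimate of -1.51 for the rare miR-19c-4-5p was not called (edgeR adjusted p = 0.62).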
